A study of Mus musculus with 14 samples.

Results

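Serpinf1, Vegfa, Efemp1, Htra1, Rbp4 and Tspan10 are 6 genes known from the retinal pigment epithelium (RPE), the pigmented cell layer behind the photoreceptors. They were taken by symbol from a mouse count table of 55291 symbols, and all 6 had enough counts to be tested beside 20562 genes in all. The question was how each of them stood in fibroblasts, at 3 times of a chemical conversion towards RPE, and in primary RPE.

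The RPE sits between the light-sensing cells and the vessels of the choroid, and it secretes different factors towards each side. Vegfa encodes vascular endothelial growth factor A, which maintains the choroidal vessels, and Serpinf1 encodes pigment epithelium-derived factor (PEDF), which restrains vessel growth and supports neurons. Efemp1 encodes fibulin 3, a matrix glycoprotein, and Htra1 encodes a secreted serine protease. Both lie at the centre of inherited or age-related disease of the macula in people. Rbp4 encodes the carrier of retinol in blood, made mainly by the liver and also by RPE. Tspan10 encodes a membrane tetraspanin of pigmented eye cells. It is the 1 gene of the 6 whose product is not secreted.

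Total RNA was sequenced in 14 mouse libraries. Mouse embryonic fibroblasts (MEF, 3 libraries) came from C57BL/6J embryos at E13.5. Cells collected on day 7 (D7) and day 18 (D18), with 3 libraries each and labelled as intermediates, had been in M7 reprogramming medium. That medium held the growth factor bFGF with the Wnt-pathway activator CHIR-99021, the BMP and TGF-beta receptor inhibitors LDN193189 and A 83-01, the hedgehog agonist Hh-Ag1.5, the DNA methyltransferase inhibitor RG108, the kinase inhibitor BMS-345541 and CKI-7, an inhibitor of casein kinase. Cells of day 32 (D32, 3 libraries), labelled ciRPE, had moved to M3 differentiation and maturation medium with the kinase inhibitor Y27632, nicotinamide, retinoic acid and activin A. Primary RPE (P-RPE, 2 libraries) was labelled as untreated, with no age. All groups carry the C57BL/6J genotype label. The labels also give MEF the first medium and give every library, P-RPE included, the embryonic tissue, and neither entry was used here. At each time point the cells that looked well induced were scraped for RNA, so the libraries do not represent whole cultures. Whether replicate libraries were separate cultures or animals is not stated, and p-values then measure only the spread among these libraries, which may be technical.

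Library totals were 32352405 to 41390196 counts, and 1 count was worth 0.0227 to 0.0305 CPM, the count after scaling every library to a common size, which serves as the level throughout. The scaling factors were edgeR's TMM factors (a trimmed mean of log ratios between libraries), and each level is a mean ± SD over a group's libraries. Adjusted p-values come from the quasi-likelihood test of edgeR, adjusted by Benjamini-Hochberg over all 20562 genes, and a gene was called higher or lower below 0.05. When libraries were scaled by their totals only, the median log2 change of all genes moved by 0.32 in D7 against MEF, -0.21 in D18 against D7, 0.20 in D32 against MEF, 0.23 in D32 against P-RPE, -0.12 in D32 against D7, 0.35 in D7 against P-RPE and 0.14 in D18 against P-RPE. Changes are therefore relative to the TMM scale. The summed level of 11 RPE markers (among them Rpe65, Rlbp1 and Best1) was 0.823 to 1.34 CPM in MEF, 2.47 to 4.07 on D7, 7.39 to 9.27 on D18, 3090 to 5980 on D32 and 37000 to 40700 in P-RPE, with none at 0 in the last 2 groups. The sum of 7 fibroblast markers (such as Col1a1 and Dcn) was 10400 to 10800 CPM in MEF and 1360 to 1650 in P-RPE. At D18 it was 14800, 12800 and 3150 in replicates 1, 2 and 3, so the third D18 library stood apart. Bulk libraries cannot tell fewer cells of a type from less RNA per cell.

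Of the 6 genes, Vegfa, Rbp4 and Tspan10 were higher in P-RPE than in MEF, Efemp1 and Htra1 were lower, and Serpinf1 did not pass. Higher levels in primary RPE than in fibroblasts were thus called for 3 of the 6, and with 6 genes that count is a description. Among all genes tested, 39.3% were called higher and 31.4% lower in that comparison. The median log2 change was 0.41 over the 6 genes and 0.18 over all genes tested.

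**Figure D1:**
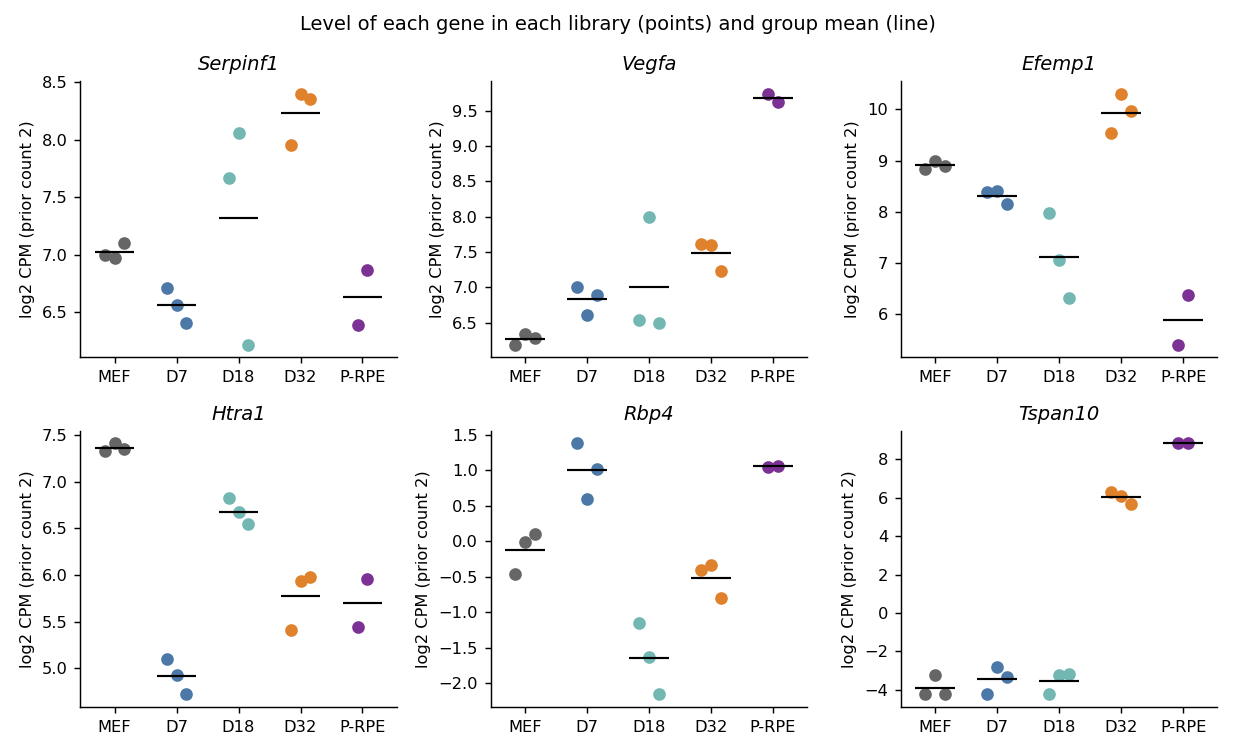
Level of each gene in every library, as log2 CPM with a prior count of 2 (y axis, a separate range for each gene), for MEF, D7, D18, D32 and P-RPE (x axis); points are libraries and lines are group means. Vegfa and Tspan10 are highest in P-RPE, Serpinf1 and Efemp1 on D32, Htra1 in MEF, and Rbp4 stays at or below 2.55 CPM in every library.

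Tspan10 followed the RPE markers and was nearly silent before D32. Its gene lies on chromosome 11 of GRCm38, chr11:120442644-120446950, on the plus strand. The 120 bases before its RefSeq start (GRCm38.p6, plus strand, chr11:120442511-120442630) are shown because they hold an M-box. This is the extended E-box that the pigment cell factor Mitf is known to bind, and it is in capitals.

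Tspan10 upstream: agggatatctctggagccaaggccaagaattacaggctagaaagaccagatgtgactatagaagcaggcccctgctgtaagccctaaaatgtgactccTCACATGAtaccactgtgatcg

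The letters TCACATGA lay 22 to 15 bases before the start and contain the E-box CACATG. On either strand, 0.846% of 32851 RefSeq windows of 250 bases held TCACATGA and 12.3% held CACATG. The longer motif was added to the search after this sequence had been seen. A match of letters is a description and shows no binding.

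Tspan10 had 2 counts over the 3 MEF libraries, 6 over those of D7 and 4 over those of D18. At D32 it stood at 77.4, 67.5 and 50.8 CPM, and in P-RPE at 454 and 453 CPM. Every D32 library was thus far above every earlier library and below both P-RPE libraries. The D32 level was 3410-fold that of MEF, with a 95% counting interval of 943 to 28100, and 1770-fold that of D18 (690 to 6490). P-RPE was 23600-fold above MEF (6540 to 195000). Low counts in these libraries were mostly even: 68.1 to 75.6% of the values from 1 to 20 were even, against 49.8 to 52.4% of those from 1000 to 10000. How read pairs were counted is not given in the sources used here. With all counts halved, the interval widens to 611 to 135000 for D32 against MEF and to 4240 to 933000 for P-RPE against MEF. These intervals cover counting error only. D32 passed against D18 (adjusted p = 6.70e-11) and against MEF (adjusted p = 3.37e-11). D32 was 6.95-fold below P-RPE (log2 change -2.80, SE 0.21, adjusted p = 6.94e-08). MEF, D7 and D18 did not differ from each other by the test (adjusted p = 0.411 for D7 against MEF, 0.789 for D18 against D7 and 0.576 for D18 against MEF).

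The genes whose levels followed Tspan10 most closely over the 14 libraries were Otx2 (r = 0.997), a transcription factor of the eye and forebrain, Lrat (0.996), an enzyme of the visual cycle, and Sult1c1 (0.996), a sulfotransferase. Otx2 averaged 73.0 CPM on D32 and 528 in P-RPE, Lrat 278 and 2720, and Sult1c1 46.9 and 286, with none above 0.019 CPM in the earlier groups. These correlations are over libraries of 5 groups and rest on the step between D18 and D32. With ranks (Spearman's correlation) none of the 3 stayed among the closest 3, and with a prior count of 0.5 Otx2 alone did and Dct, a pigment enzyme, was closest (r = 0.992).

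Of 7 RPE transcription factors, 5 were higher on D32 than in MEF, none lower, and 5 were lower on D32 than in P-RPE, none higher. Their median log2 change in D32 against P-RPE was -2.18, beside 0.02 over all genes. Mitf, the master regulator of pigment cells, averaged 3.70 ± 0.0972 CPM in MEF, 15.1 ± 0.456 on D7, 12.0 ± 3.52 on D18, 21.3 ± 6.45 on D32 and 96.8 ± 8.70 in P-RPE. Mitf passed between MEF and D7 (adjusted p = 1.81e-06), when Tspan10 did not. Sox9 was highest on D18 (432 ± 106 CPM), and at 57.2 ± 7.76 CPM on D32 it lay below P-RPE (211 ± 10.6, adjusted p = 2.96e-07). Pax6, an eye-field factor, had reached 41.8 ± 3.28 CPM by D18. Crx is among the 5 in both counts and is also a factor of photoreceptors. It averaged 0.574 ± 0.481 CPM on D32 and 19.2 ± 11.7 in P-RPE (adjusted p = 4.23e-05).

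TspanC8 tetraspanins are the subfamily, Tspan10 included, that escorts the membrane protease Adam10. Of 5 other TspanC8 genes and Adam10, 5 were higher and 1 lower on D18 than on D7 (median log2 change 1.61, beside 0 over all genes). On D32 against D18 1 was higher and 5 lower (median -1.17, beside 0.07). Of all genes tested 29.2% were higher and 27.4% lower on D18 than on D7, and 29.9% and 26.1% on D32 against D18. Tspan15 averaged 5.67 ± 1.28 CPM in MEF, 392 ± 67.4 on D18, 31.9 ± 3.10 on D32 and 15.0 ± 3.42 in P-RPE. Tspan33 likewise peaked on D18 (20.3 ± 4.41 CPM), and Adam10 was the gene of this list with the highest mean level, at 232 ± 29.0 CPM on D32 and 80.1 ± 11.7 in P-RPE. In D32 against P-RPE 4 of the 6 were higher and 2 lower (median log2 change 1.03, beside 0.02 over all genes). Tspan5 was one of the lower ones (55.6 ± 11.9 CPM on D32 and 183 ± 27.6 in P-RPE, adjusted p = 2.19e-07), as Tspan10 was, and Tspan17 was higher (67.9 ± 16.4 and 21.6 ± 2.75, adjusted p = 1.10e-06).

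Vegfa was highest in P-RPE, where it had the highest level per length of the 5 secreted factors, and D32 cells held 22% of its P-RPE level. The gene lies at chr17:46016993-46032369 on the minus strand. MEF libraries held 73.1, 80.7 and 78.4 CPM, D7 libraries 128, 97.6 and 119, D18 libraries 93.1, 254 and 89.6, D32 libraries 196, 194 and 150, and P-RPE libraries 854 and 785. Both P-RPE libraries were above all others, and every D32 library was above every MEF library. The second D18 library was the highest of the cultured ones, while the other two lay below all D7 libraries.

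Vegfa was 2.32-fold higher on D32 than in MEF (log2 change 1.22, SE 0.32, adjusted p = 0.0047). P-RPE was 10.6-fold above MEF (3.40, SE 0.36, adjusted p = 1.60e-06) and 4.55-fold above D32 (D32 minus P-RPE -2.19, SE 0.34, adjusted p = 1.44e-04). In the order P-RPE, D32, D18, D7, MEF only the first step passed. The steps D32 against D18 (0.31, SE 0.31, adjusted p = 0.422), D18 against D7 (0.34, SE 0.31, adjusted p = 0.372) and D7 against MEF (0.57, SE 0.31, adjusted p = 0.142) did not. The second D18 library decided the D18 level. Without it, D18 was lower than D7 (-0.34, SE 0.14, adjusted p = 0.0483), D32 was higher than D18 (0.95, SE 0.14, adjusted p = 5.05e-05), and D18 no longer passed against MEF (0.91 with all libraries, adjusted p = 0.0194; 0.20 without it, adjusted p = 0.208).

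The ligands of the family did not all follow Vegfa. Placental growth factor (Pgf) was among the 3 genes closest to Vegfa over the 14 libraries (r = 0.959), with Fbxl4 (0.969) and Tmco4 (0.956). Pgf rose from 5.07 ± 0.50 CPM in MEF to 22.8 ± 8.22 on D32 (adjusted p = 5.08e-06) and stood at 96.6 ± 8.91 in P-RPE. Vegfb, a ligand of Flt1, averaged 55.8 ± 3.20 CPM in MEF and 52.4 ± 8.71 on D32 (adjusted p = 0.515) and was higher in P-RPE (150 ± 12.6, adjusted p = 1.71e-07 against D32). Vegfd, a ligand of lymphatic vessels, was the reverse of Vegfa at 24.0 ± 1.26 CPM on D32 and 4.10 ± 2.31 in P-RPE (adjusted p = 7.45e-04).

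The receptors Kdr, Flt1, Flt4 and Nrp1 fell between MEF and D7 and rose between D18 and D32. Kdr, the main signalling receptor of Vegfa, averaged 51.6 ± 3.21 CPM in MEF, 1.46 ± 0.276 on D7, 0.344 ± 0.168 on D18, 21.8 ± 4.95 on D32 and 148 ± 10.1 in P-RPE. Each of the steps for Kdr passed, with adjusted p = 1.12e-10 for D7 against MEF and 2.18e-10 for D32 against D18. Flt4, the lymphatic receptor, went from 113 ± 2.46 CPM in MEF to 1.01 ± 0.184 on D7 and 12.5 ± 2.23 on D32. The co-receptor Nrp2 was the family member with the highest mean level and reached 577 ± 57.4 CPM on D32, above P-RPE (185 ± 14.3, adjusted p = 1.25e-07). Of the 9 ligands and receptors measured besides Vegfa, 7 were higher on D32 than on D18 and none lower (median log2 change 2.63, beside 0.07 over all genes). In D32 against P-RPE 2 of these 9 were higher and 5 lower, and with the 2 groups fitted alone 4 were higher.

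Kdr and Flt1 are also made by endothelial cells. The 6 endothelial markers summed to 2.38 to 3.56 CPM in MEF, 1.86 to 2.64 on D7, 1.34 to 6.83 on D18, 146 to 191 on D32 and 488 to 578 in P-RPE, with none at 0 in the last 2 groups. All 6 passed between D18 and D32, when Kdr and Flt1 rose. In MEF, with marker sums that low, Kdr and Flt1 averaged 51.6 and 44.3 CPM, above their D32 means of 21.8 and 27.8. Their part in the receptor values was not tested.

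**Figure D2:**
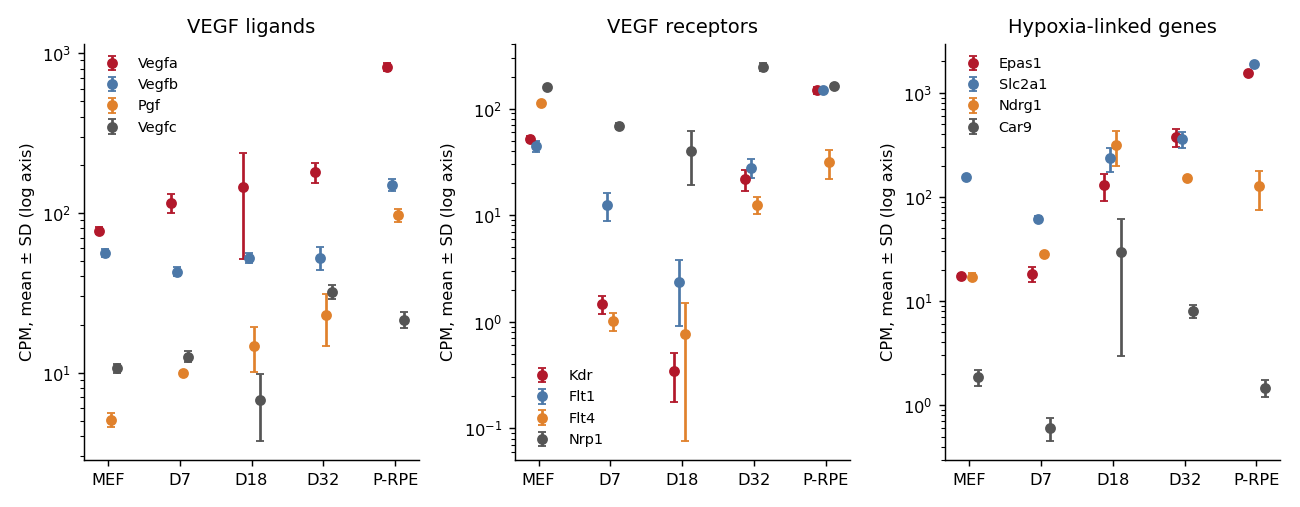
Mean CPM ± SD over libraries (y axes, log scale; lower bars that would pass 0 are shortened) by group (x axes) for VEGF ligands (left), receptors (middle) and hypoxia-linked genes (right). Vegfa and Pgf are highest in P-RPE, Kdr is lowest on D18 with 0.344 CPM, and Car9 on D18 has an SD larger than its mean.

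Vegfa is a textbook target of the hypoxia-inducible factors. Of 13 genes of the hypoxia response, 10 were higher and 1 lower on D18 than on D7, with a median log2 change of 1.61 beside 0 over all genes. At D32 against MEF 9 were higher and none lower (median 1.06, beside 0.26). Epas1, which encodes the factor HIF-2 alpha, was 17.4 ± 0.628 CPM in MEF, 129 ± 38.0 on D18 (adjusted p = 2.32e-08 against D7), 373 ± 73.1 on D32 and 1540 ± 18.6 in P-RPE. Slc2a1, the glucose transporter that RPE uses to feed the retina, averaged 61.7 ± 3.63 CPM on D7, 357 ± 61.0 on D32 and 1880 ± 55.4 in P-RPE.

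Ndrg1 and Car9, which respond strongly to low oxygen, peaked on D18 with means of 314 and 29.9 CPM, and the SD of Car9 there was larger than its mean. At D32 they averaged 151 ± 4.38 and 7.97 ± 1.17 CPM. The vessel-relaxing peptide gene Adm was higher on D32 (53.3 ± 16 CPM) than in P-RPE (7.07 ± 1.22, adjusted p = 0.00127), opposite to Vegfa. Against D18, 4 hypoxia genes were higher and 7 lower on D32; without the second D18 library 4 were lower. That library is the one with 254 CPM of Vegfa. Without it, 10 hypoxia genes were still higher and 1 lower on D18 than on D7. Vegfa did not pass in D18 against D7 with all libraries (log2 change 0.34, adjusted p = 0.372). It was lower on D18 without that library (-0.34, adjusted p = 0.0483). The part of low oxygen in the Vegfa values was not tested.

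Serpinf1, which encodes the vessel-restraining factor PEDF, was highest on D32, above both MEF and P-RPE. The gene lies at chr11:75409769-75422701 on the minus strand. The 30 bases shown (minus strand, GRCm38.p6, chr11:75422692-75422721) hold the only matches in its 250-base window to the motifs searched, the hypoxia core ACGTG and the E-box CACATG, both in capitals.

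Serpinf1 upstream: ggccaACGTGtggtcttggagcCACATGgc

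ACGTG lay 93 to 89 and CACATG 76 to 71 bases before the RefSeq start, which is 78 bases inside the GENCODE start. ACGTG was found in 16.6% of all windows. The other motifs searched, CACGTG (6.02% of windows) and the OTX core TAATCC (6.25%), were in none of the windows of the 6 genes. The windows at the first starts of Vegfa, Efemp1, Htra1 and Rbp4 held none of the 5 motifs, and ACGTG was in the windows of internal starts of Vegfa and Rbp4.

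Serpinf1 stood at 128, 125 and 137 CPM in MEF, at 105, 94.4 and 84.9 on D7, at 204, 268 and 74.3 on D18, at 246, 339 and 325 on D32, and at 83.7 and 117 in P-RPE. All D32 libraries were above all MEF, D7 and P-RPE libraries. The D18 libraries ran from the lowest value of all 14 libraries to one within the D32 range.

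D32 was 2.33-fold above MEF (log2 change 1.22, SE 0.33, adjusted p = 0.00614) and 3.03-fold above P-RPE (1.60, SE 0.38, adjusted p = 0.0035). The second of these did not pass without the first P-RPE library (1.38, adjusted p = 0.0525). P-RPE against MEF gave -0.38 (SE 0.37, adjusted p = 0.375), and with the 2 groups fitted alone P-RPE was called lower (-0.42, adjusted p = 0.0152). In the order D32, D18, MEF, P-RPE, D7 no step between neighbours passed, and without the second D18 library D32 passed against D18 (1.10, adjusted p = 0.0116). D18 was called above D7 (0.94, SE 0.33, adjusted p = 0.0256), and this call was lost under 8 of 14 alternatives, down to 0.55 (adjusted p = 0.153) without the second D18 library. Without the third D18 library D18 passed against MEF (0.86, adjusted p = 3.74e-04) and against P-RPE (1.24, adjusted p = 6.41e-05), neither of which passed with it.

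The third D18 library, lowest in Serpinf1, was also lowest on D18 in fibroblast markers (3150 CPM), and the D32 library lowest in Serpinf1 was the lowest of its group in them (9840 CPM, against 15600 and 14200). Serpinf1 is also made by fibroblasts. Over the 14 libraries the genes closest to Serpinf1 were Gstm2 (r = 0.915), a glutathione transferase, the adhesion gene Emb (0.888) and Svep1 (0.888), a large matrix protein. Svep1 averaged 127 CPM in MEF, 924 on D32 and 32.8 in P-RPE. With Spearman's rank correlation none of these 3 was kept, and the closest gene was Postn, a matrix gene of fibroblasts (0.916).

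The balance between Vegfa and Serpinf1 within a library set P-RPE apart. The ratio of Vegfa to Serpinf1 in CPM was 10.2 and 6.72 in P-RPE, 0.46 to 0.796 on D32, 0.456 to 1.21 on D18, 1.03 to 1.4 on D7 and 0.57 to 0.644 in MEF. The D32 ratios overlapped with those of MEF, since both genes were higher on D32 by nearly the same factor. Across the 14 libraries log2 levels of the 2 genes had r = 0.02.

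Among 5 genes whose products are described as PEDF receptors or partners, 3 were higher and 1 lower on D32 than in MEF. Of all genes tested 35.6% were higher and 24.6% lower, and the median log2 change was 0.41 over the list and 0.26 over all. Rpsa, the laminin receptor and a ribosomal protein, had the highest mean level and fell from 1910 ± 83.1 CPM in MEF to 780 ± 191 on D32 (adjusted p = 6.22e-06). Plxdc1 peaked on D18 with 247 ± 35.0 CPM and was at 12.3 ± 1.80 on D32, below P-RPE (30.9 ± 0.904, adjusted p = 2.36e-06). Plxdc2 was the reverse, at 138 ± 8.28 CPM on D32 against 25.9 ± 6.41 in P-RPE (adjusted p = 2.55e-07).

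Among 5 other secreted inhibitors of vessel growth, 4 were higher and none lower on D32 than in MEF (median log2 change 1.18, beside 0.26). Thrombospondin 1 (Thbs1) had the highest mean level and was the 1 that did not pass (adjusted p = 0.973). It averaged 9410 ± 114 CPM in MEF, 188 ± 40.0 on D7, 335 ± 91.0 on D18, 9350 ± 742 on D32 and 965 ± 48.3 in P-RPE. Timp3, an inhibitor of metalloproteases held in the membrane below the RPE, went from 584 ± 17.3 CPM in MEF to 1560 ± 330 on D32 (adjusted p = 1.21e-05) and was at 4590 ± 283 in P-RPE. Thbs2 was 803 ± 167 CPM on D32 and 55.4 ± 6.60 in P-RPE (adjusted p = 2.93e-08).

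Efemp1, the matrix glycoprotein, was highest on D32 and lowest in P-RPE. It lies at chr11:28853204-28926743 on the plus strand. Libraries held 460, 507 and 477 CPM in MEF, 333, 340 and 285 on D7, 253, 133 and 79.7 on D18, 740, 1270 and 996 on D32, and 42.1 and 82.6 in P-RPE. Every D32 library was above every other library. The 3 D18 libraries were below all of D7, and the third of them lay between the 2 P-RPE libraries.

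Efemp1 was lower on D18 than on D7 (log2 change -1.04, SE 0.35, adjusted p = 0.0213), and this did not pass without the second (adjusted p = 0.0707) or the third D18 library (adjusted p = 0.0524). It was then 6.46-fold higher on D32 (2.69, SE 0.37, adjusted p = 3.73e-05). Against MEF, D32 was 2.08-fold higher (1.06, SE 0.35, adjusted p = 0.0186), which did not pass without the second D32 library (0.85, adjusted p = 0.0817), without the first MEF library (1.02, adjusted p = 0.0534) or with no filter on low counts (0.98, adjusted p = 0.0919). D32 was 16.1-fold above P-RPE (4.01, SE 0.46, adjusted p = 1.01e-05), and P-RPE was 7.72-fold below MEF (P-RPE minus MEF -2.95, SE 0.44, adjusted p = 4.54e-05). In the order D32, MEF, D7, D18, P-RPE the step from MEF to D7 did not pass (D7 minus MEF -0.59, SE 0.35, adjusted p = 0.168). The step from D18 to P-RPE passed (1.32, SE 0.41, adjusted p = 0.014), and it was lost without the first P-RPE library (0.91, adjusted p = 0.151).

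The 2 D32 libraries with more Efemp1 were the ones with more of the fibroblast markers, and the third D18 library was lowest of its group in both. The first and second D18 libraries went the other way, with marker sums of 14800 and 12800 CPM above every MEF library and Efemp1 of 253 and 133 CPM below every one. P-RPE had the lowest mean of the 5 groups in both. All 7 fibroblast markers were present in every library, but their sum hides opposite courses. Between MEF and D18 the mean of Col1a1 went from 7480 to 2370 CPM and that of Col3a1 from 512 to 4940. At D32 against P-RPE 5 of the 7 were higher and none lower. Their part in the Efemp1 and Serpinf1 values was not tested.

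**Figure D3:**
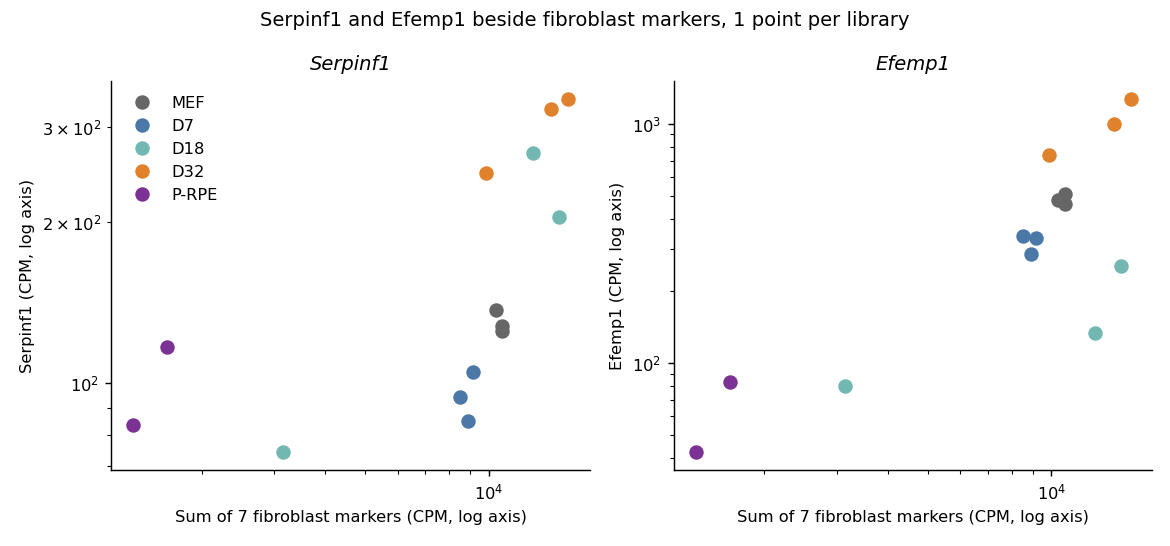
Level of Serpinf1 (left) and Efemp1 (right) in CPM (y axes, log scale) against the summed CPM of 7 fibroblast markers (x axes, log scale); each point is a library, coloured by group. D32 libraries have the highest Efemp1 at marker sums of 9840 to 15600, close to the MEF sums of 10400 to 10800, and the third D18 library lies near P-RPE at 3150.

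The genes closest to Efemp1 over the 14 libraries were Prss35 (r = 0.979), a secreted protease-like gene, Hmox1 (0.972), the haem-degrading enzyme of the stress response, and Aff2 (0.97). Hmox1 averaged 192 CPM in MEF, 90.4 on D18, 291 on D32 and 36.1 in P-RPE. With Spearman's rank correlation 1 of the 3, Hmox1, was kept (0.982).

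Other fibulins shared the excess on D32 over P-RPE. Of 6 genes of the family besides Efemp1, 4 were higher and none lower on D32 than in P-RPE, with a median log2 change of 1.14 beside 0.02. Hmcn1, a large fibulin of basement membranes, averaged 13.5 ± 0.138 CPM in MEF, 157 ± 44.4 on D32 and 27.1 ± 4.75 in P-RPE (adjusted p = 1.20e-06 against MEF and 8.25e-05 against P-RPE). Fbln2 had the highest mean level and did not follow Efemp1 against MEF. It was 3790 ± 244 CPM in MEF, 454 ± 174 on D32 and 70.1 ± 17.5 in P-RPE, and so lower on D32 than in MEF (adjusted p = 3.39e-04). Fbln7 went from 2.29 ± 0.226 CPM in MEF to 53.9 ± 22.5 on D32 (adjusted p = 1.56e-08) and was 39.8 ± 2.72 in P-RPE.

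Htra1 was highest in fibroblasts and was the 1 gene of the 6 that did not differ between D32 and P-RPE by the test. It lies at chr7:130936111-130985660 on the plus strand. Its extent overlaps that of Fgfr2 on the opposite strand, with 0 shared exon bases. Libraries held 161, 170 and 164 CPM in MEF, 34.1, 30.4 and 26.3 on D7, 113, 102 and 93.1 on D18, 42.4, 60.9 and 63 on D32, and 43.4 and 62 in P-RPE. MEF was above all other libraries, D7 was below all, and the D32 and P-RPE libraries overlapped.

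Htra1 was 5.44-fold lower on D7 than in MEF (log2 change -2.44, SE 0.17, adjusted p = 1.29e-08) and 3.38-fold higher on D18 than on D7 (1.76, SE 0.16, adjusted p = 3.35e-07). It was lower again on D32 (-0.89 against D18, SE 0.16, adjusted p = 2.32e-04). D32 was 2.97-fold below MEF (-1.57, SE 0.16, adjusted p = 9.02e-07), and P-RPE was 3.12-fold below MEF (-1.64, SE 0.19, adjusted p = 1.36e-06). D32 against P-RPE gave 0.07 (SE 0.18, adjusted p = 0.752), with values from -0.16 to 0.35 when single libraries were left out. In the order MEF, D18, D32, P-RPE, D7 every other step passed, with adjusted p = 0.00119 for MEF against D18 and 9.85e-04 for P-RPE against D7.

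The closest genes over the libraries were Avpi1 (r = 0.95), Chrnb1 (0.949) and Cdc42bpa (0.943), each lowest on D7. Of the 3 other HtrA proteases, Htra3 had the highest mean level and a different course. It averaged 5.89 ± 0.944 CPM in MEF, 11.4 ± 1.46 on D7, 322 ± 128 on D18, 54.5 ± 6.14 on D32 and 14.4 ± 3.80 in P-RPE. Htra3 was higher on D32 than in MEF (adjusted p = 1.02e-07) and than in P-RPE (adjusted p = 4.22e-05). Htra4 stayed at or below 1.2 CPM on average in every group.

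Rbp4, the retinol carrier, was low in all libraries and was not called above MEF on D32. It lies at chr19:38116629-38125281 on the minus strand. Libraries held 0.67, 0.94 and 1.02 CPM in MEF, 2.55, 1.45 and 1.98 on D7, 0.393, 0.267 and 0.171 on D18, 0.701, 0.739 and 0.522 on D32, and 2.01 and 2.04 in P-RPE. D7 and P-RPE overlapped as the highest, D18 was below all others, and D32 overlapped with MEF.

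Rbp4 was 2.26-fold higher on D7 than in MEF (log2 change 1.18, SE 0.33, adjusted p = 0.00733) and 7.11-fold lower on D18 than on D7 (-2.83, SE 0.37, adjusted p = 1.21e-05). D32 was 2.34-fold above D18 (1.23, SE 0.38, adjusted p = 0.0134), which did not pass without the third D18 library (0.98, adjusted p = 0.0572) or with the 2 groups fitted alone (1.21, adjusted p = 0.0561). D32 against MEF gave -0.42 (SE 0.35, adjusted p = 0.305). D32 was 3.09-fold below P-RPE (-1.63, SE 0.37, adjusted p = 0.00168), and P-RPE was 2.30-fold above MEF (1.2, SE 0.36, adjusted p = 0.00822). In the order P-RPE, D7, MEF, D32, D18 the first step (P-RPE against D7, adjusted p = 0.962) and that from MEF to D32 did not pass.

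The course of Rbp4 was shared most closely by Spry4 (r = 0.972), Spry1 (0.971) and Dusp6 (0.968). These 3 genes are known as feedback inhibitors switched on by growth factor signalling through ERK. Dusp6 averaged 101 CPM in MEF, 282 on D7, 31.8 on D18, 83.7 on D32 and 443 in P-RPE, and Spry1 44.7, 127, 15.8, 30.9 and 123 in the same order. With Spearman's rank correlation 2 of the 3, Spry1 and Dusp6, were kept.

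Of 6 other genes of retinol transport tested, 5 were higher and none lower on D32 than in MEF, and 4 were lower and none higher on D32 than in P-RPE (median log2 change -3.20, beside 0.02). Rbp4 was also lower on D32 than in P-RPE and did not pass against MEF. Ttr, the partner that holds Rbp4 in blood and is abundant in RPE, had 0 counts in MEF and averaged 2040 ± 597 CPM on D32 and 22600 ± 2140 in P-RPE. Ttr is also made by the choroid plexus, whose 4 other markers summed to 135 to 259 CPM on D32 and 1490 to 1580 in P-RPE. Most of that sum was Clic6, with means of 159 CPM on D32 and 1430 in P-RPE. Folr1 averaged 25.4 and 95.5 CPM, Kcne2 0.789 and 4.9, and Kl 0.205 and 0.191. Stra6, the receptor through which RPE takes up retinol from Rbp4, averaged 0.202 ± 0.087 CPM in MEF, 1.43 ± 1.03 on D18, 237 ± 72.3 on D32 and 2740 ± 54.0 in P-RPE. Rbp3, the retinoid carrier of the space between RPE and photoreceptors and a photoreceptor product, was at 5.94 ± 2.11 CPM on D32 and 148 ± 98.8 in P-RPE. Liver is the main source of Rbp4 in the body, and the 5 hepatocyte markers summed to 0.426 to 0.885 CPM in MEF, 11.2 to 13.1 on D7, 7.89 to 24.4 on D18, where Rbp4 was lowest, 4.18 to 7.41 on D32 and 1.39 to 1.43 in P-RPE. On D7 and D18 most of that sum was Alb, with means of 10.7 and 16.5 CPM, and Alb had 0 counts in MEF. The part of hepatocyte-like cells in the Rbp4 values was not tested.

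Per kilobase of exon, levels can be compared between genes. Efemp1 had the highest CPM per kb of the 6 in MEF (236 ± 11.8), on D7 (157 ± 14.8) and on D32 (492 ± 130). At D18 Serpinf1 (77.2 ± 41.8) and Efemp1 (76.2 ± 43.5) were within their spread. In P-RPE Tspan10 was first (251 ± 0.491), then Vegfa (191 ± 11.5), Serpinf1 (42.5 ± 9.91), Efemp1 (30.6 ± 14.1), with Htra1 next and Rbp4 last (1.51 ± 0.0117). Serpinf1 and Efemp1 were within their spread there as well.

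**Figure D4:**
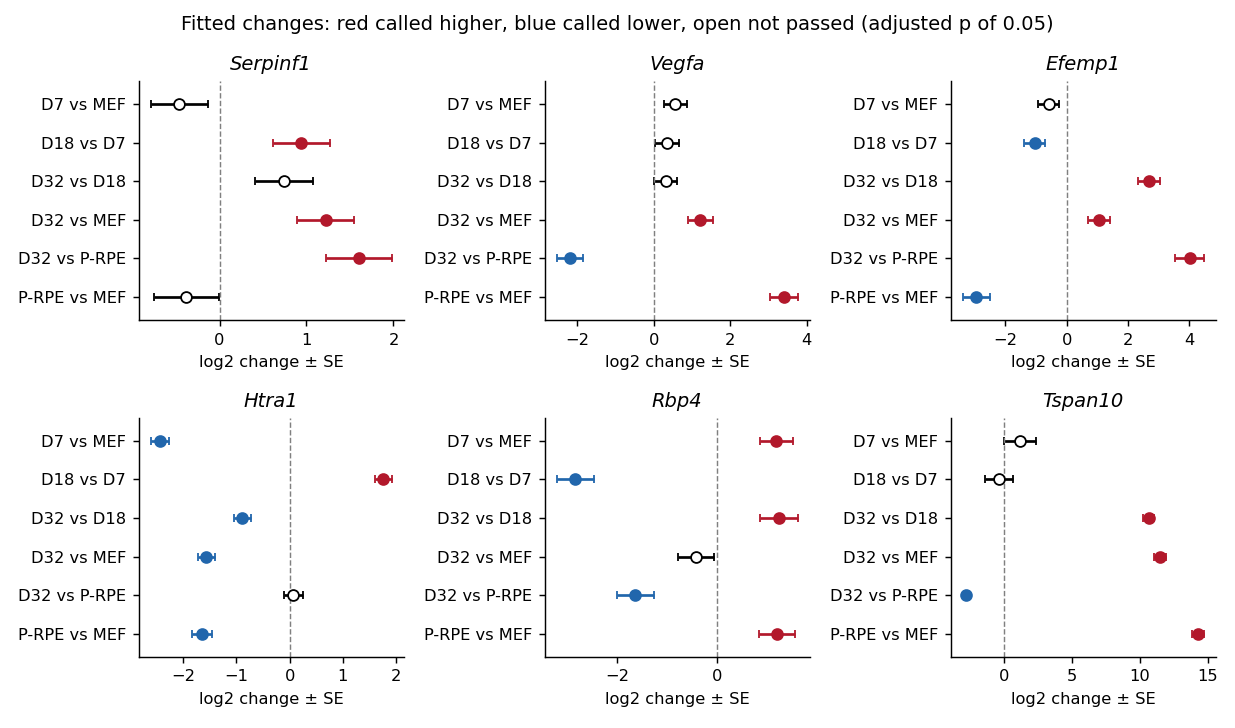
Fitted log2 changes (x axes, a separate range for each gene) with bars of 1 SE for the 6 main comparisons (y axes); red and blue points were called higher and lower at an adjusted p below 0.05 in edgeR's quasi-likelihood test, and open points did not pass. Tspan10 is called only in the 4 comparisons with D32 or P-RPE, and Htra1 is called in every comparison but D32 against P-RPE.

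Read by comparison, D7 against MEF gave 1 of the 6 genes called higher (Rbp4) and 1 lower (Htra1), beside 28.5% higher and 26.5% lower of all genes tested. With the 2 groups fitted alone Tspan10 was not tested and the other 5 passed, beside 36.8% higher and 34.5% lower of 16937 genes tested. Serpinf1 was then lower (-0.43, adjusted p = 9.09e-04), Efemp1 lower (-0.56, adjusted p = 7.03e-05) and Vegfa higher (0.60, adjusted p = 3.39e-04). D18 against D7 gave 2 higher (Serpinf1, Htra1) and 2 lower (Efemp1, Rbp4), beside 29.2% and 27.4% of all genes. D32 against D18 gave 3 higher (Efemp1, Rbp4, Tspan10) and 1 lower (Htra1), beside 29.9% and 26.1%.

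D32 against MEF gave 4 higher (Serpinf1, Vegfa, Efemp1, Tspan10) and 1 lower (Htra1), beside 35.6% and 24.6% of all genes, with a median log2 change of 1.14 over the 6 genes and 0.26 over all. D32 against P-RPE gave 2 higher (Serpinf1, Efemp1) and 3 lower (Vegfa, Rbp4, Tspan10), beside 27.1% and 26.8%, with medians of -0.78 and 0.02. Among the comparisons used only to order levels, 4 of the 6 passed in D18 against MEF (70.2% of all genes), 5 in D32 against D7 (50.8%), 4 in D7 against P-RPE (63.9%) and 5 in D18 against P-RPE (56.2%). Comparisons that share a group share its libraries. With 6 genes these shares are a description.

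The split of all calls moved with the scaling. By TMM 5852 genes were higher and 5450 lower in D7 against MEF, and by library totals alone 8074 and 3512. The same counts were 6011 and 5634 by TMM and 4850 and 7059 by totals in D18 against D7, 5564 and 5516 against 6979 and 4260 in D32 against P-RPE, and 6397 and 6751 against 8431 and 5336 in D7 against P-RPE. Of the 6 genes, 2 had calls that scaling by totals changed in the 6 main comparisons. Vegfa then passed in D7 against MEF (0.89, adjusted p = 0.0313). Serpinf1 no longer passed in D18 against D7 (0.72, adjusted p = 0.0738) and passed in D32 against D18 (0.83, adjusted p = 0.0439).

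As a share of the P-RPE mean, D32 held 14.4% for Tspan10, 22% for Vegfa, 32% for Rbp4, 105% for Htra1, 302% for Serpinf1 and 1610% for Efemp1. The 11 RPE markers ran from 8.89 to 59.4%, with a median of 11.7%. The top value was that of Best1, a low gene with 1.36 CPM on D32 and 2.29 in P-RPE. The next was Dct with 21.6%. Tspan10 lay among the other RPE markers and above the median. Rbp4 lay above every RPE marker but Best1. Vegfa lay close to Dct, whose means had wide spreads (395 ± 124 CPM on D32 and 1830 ± 590 in P-RPE).

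Markers of cells that surround the RPE in the eye, or of blood, were present on D32 as well. The 5 red cell markers summed to 0.0562 to 0.454 CPM on D18, 102 to 204 on D32 and 974 to 1780 in P-RPE, and D32 held 8.92 to 12.7% of their P-RPE levels (median 9.81%). The 6 macrophage markers summed to 1.26 to 13.4 CPM on D18, 95 to 164 on D32 and 920 to 937 in P-RPE, with D32 shares of 11.2 to 31.3%. None of these markers was at 0 in any D32 or P-RPE library. All red cell and macrophage markers passed between D18 and D32, the step at which Tspan10 appeared. Astrocyte markers (5 genes) summed to 23500 to 34900 CPM on D18, 1830 to 2010 on D32 and 286 to 467 in P-RPE. Melanocyte and Schwann cell markers (4 genes) summed to 447 to 643 CPM on D18, 94.1 to 120 on D32 and 595 to 707 in P-RPE. The part of these cell types in the D32 levels of Tspan10, Vegfa and Rbp4 was not tested.

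**Figure D5:**
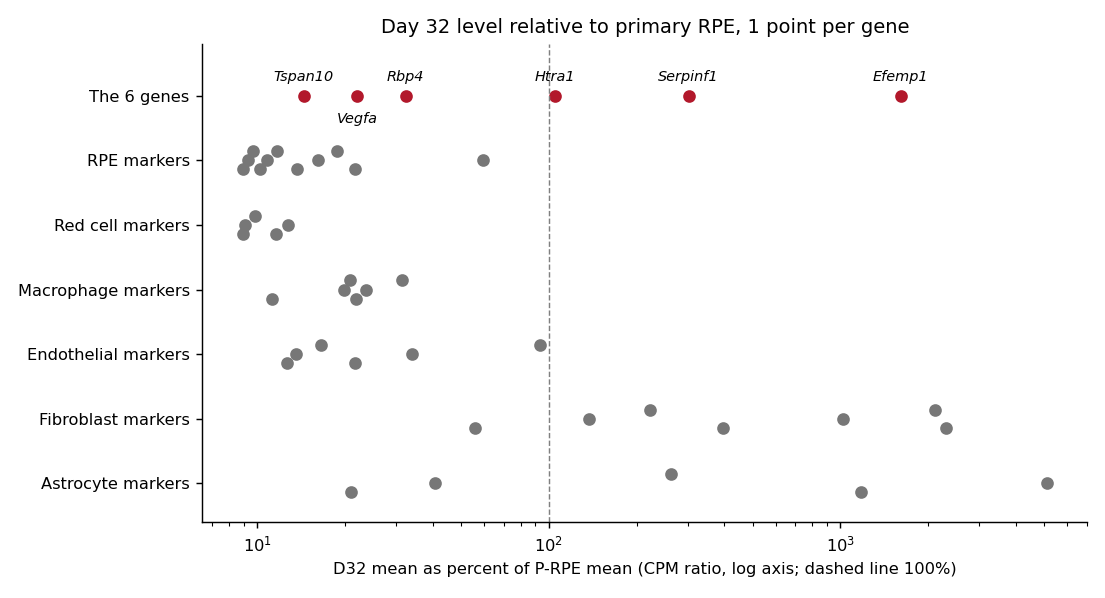
D32 mean as a percent of the P-RPE mean (x axis, log scale, CPM ratio), 1 point per gene, for the 6 genes and for markers of 6 cell types (rows); the dashed line is 100%. Tspan10 (14.4%) lies among the RPE, macrophage and endothelial markers. Vegfa (22%) lies among the macrophage and endothelial markers. It is also close to Dct, the highest RPE marker after Best1 (21.6%), and to the lowest astrocyte marker (21%). Serpinf1 (302%) and Efemp1 (1610%) lie within the ranges of both the fibroblast and the astrocyte markers.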

How the data were processed

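RNA was sequenced from both ends on a NovaSeq, per the labels' protocols. The values the authors deposited are counts, whole numbers for each symbol in each library. Tools listed in the submitters' processing notes are edgeR 4.0.16, limma 3.58.1, STAR 2.7.11a and Subread with featureCounts. The strand setting, the counting of read pairs and the annotation release are not given in the sources used here. The 10 columns of a human table were not used here. Groups came from the sample titles.

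Counts were filtered with filterByExpr by group, scaled by TMM and fitted with edgeR 4.0.16 in R 4.3.3 as 1 robust quasi-likelihood model of 5 group means over 14 libraries. Calls used Benjamini-Hochberg adjusted p below 0.05 over 20562 genes. The SE is the size of the log2 change over the square root of F. Log2 CPM used a prior count of 2. Positions are from GENCODE vM21 on GRCm38, which matched 53292 symbols (96.4%), and sequences from RefSeq on GRCm38.p6. The pipeline was tested on simulated data.

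The 6 genes, the related lists and the markers were chosen with earlier results of these data known. The genes named are the 6. For each of them, the 3 genes with the highest Pearson r among those with a group mean of at least 10 CPM are named too. Of each related list, the gene with the highest mean level and the 2 called genes with the largest change in D32 against MEF and in D32 against P-RPE are named. Mitf, Flt1, Vegfb, Nrp1, Dct and Postn were named after their values were seen, and the figure of the VEGF family adds Vegfc. Other tools tried were limma-voom 3.58.1 and DESeq2 1.42.0. Other settings were scaling by RLE or by totals only, a filter at a mean of 5 CPM or none, a block for the replicate number, each pair of groups fitted alone, and the fit without each library in turn. The markers of 1 further cell type are not reported here.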

Additional observations from a re-analysis of the deposited data

How the results depend on the processing

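Of the log2 changes of the 6 genes over 10 comparisons, 749 values under alternatives kept their direction and side of the threshold, 23 no longer passed, 14 newly passed and 17 changed sign. Of the called changes of the other genes named from the lists, 2059 values kept their call, 72 no longer passed and 0 changed sign. In D7 against MEF the number of the 6 genes called went from 2 to 1 with a mean of at least 5 CPM (which removed 1 gene of the 6) and to 5 of 5 tested with the 2 groups alone, and in D18 against D7 from 4 to 2 with no filter on low counts. Signs changed mostly where the change was near 0. For D7 against P-RPE, Serpinf1 (-0.08) gave 0.26 with library totals alone, 0.02 with no filter and -0.31 to 0.17 without single libraries, and Rbp4 (-0.02) gave 0.32, 0.08 and -0.14 to 0.26. Without single libraries, D18 against D7 ranged from -0.87 to 0.48 for Tspan10 and from -0.34 to 0.60 for Vegfa, and D32 against P-RPE from -0.16 to 0.35 for Htra1. The cause was not tested. Same-numbered libraries did not deviate together (26 pairs, r from -0.10 to 0.10, none above 0.1), so the numbers were not taken as pairs. With the replicate number as a block, D7 against P-RPE gave 0.05 for Serpinf1 and 0.02 for Rbp4, and the number of the 6 genes called was the same in every comparison (2 in D7 against MEF, 5 in D32 against MEF). Depth limits Tspan10 before D32, where 2 to 6 counts stand behind each group.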
